A study of Rattus norvegicus with 8 samples.

Results

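The 10 genes described here, Hif1a, Vegfa, Pdk1, Bnip3, Bnip3l, Fam162a, Ero1a, Ndrg1, Egln3 and Ankrd37, belong to the transcriptional response to low oxygen. They were found by their gene symbols, and all 10 were present, on 1 row each, among the 14295 genes measured in adipose-derived stem cells and the 18236 genes measured in adipocytes. RNA was sequenced from 8 libraries of wild-type Wistar rats. The groups were adipocytes of rats fed a high-fat sucrose diet (AD_HFS), adipocytes of rats fed a control diet (AD_C), stem cells of HFS-fed rats (ASC_HFS) and stem cells of control rats (ASC_C), with 2 libraries each. Both diets lasted 6 months. The stem cells, which are mesenchymal and can become fat cells, came from inguinal fat by collagenase digestion and cultured. Adipocytes were made from confluent stem cells with dexamethasone (5.0 µM), IBMX (0.5 mM) and insulin (10.0 µg/mL) for 3 days, then insulin alone for 7 days. The labels give no oxygen level for the cultures and no sample exposed to low oxygen, so the inducibility that gives the 10 genes their name was not measured here.

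Cells sense oxygen through prolyl hydroxylases, which use it to modify the alpha subunits of the hypoxia-inducible factors (HIF). The VHL ubiquitin ligase recognises the modified subunit and marks it for degradation, so HIF activity is set mainly at the protein level. When oxygen falls, HIF accumulates and activates genes that favour glycolysis over mitochondrial respiration, remove mitochondria, attract blood vessels and feed back on the hydroxylases. In fat this pathway is known for its activity in enlarged depots of obese animals, where vessels may not keep pace with growing adipocytes. HIF binds DNA at a short core motif, ACGTG or GCGTG.

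The promoters of Fam162a, Pdk1 and Bnip3 are shown because these genes were called lower in HFS stem cells and have a RefSeq promoter entry (rat build GRCr8, 250 bases before to 50 bases after the start, gene strand). Capitals mark every ACGTG or GCGTG on either strand, so that a match on the other strand reads CACGT or CACGC, and a CACGTG holds a match on both strands.
Fam162a: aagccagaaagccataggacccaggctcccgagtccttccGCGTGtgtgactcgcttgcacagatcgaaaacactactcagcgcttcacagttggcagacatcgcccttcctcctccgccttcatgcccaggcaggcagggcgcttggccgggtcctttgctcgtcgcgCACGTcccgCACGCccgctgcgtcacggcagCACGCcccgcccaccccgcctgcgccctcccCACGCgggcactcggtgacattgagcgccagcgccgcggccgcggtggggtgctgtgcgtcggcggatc
Pdk1: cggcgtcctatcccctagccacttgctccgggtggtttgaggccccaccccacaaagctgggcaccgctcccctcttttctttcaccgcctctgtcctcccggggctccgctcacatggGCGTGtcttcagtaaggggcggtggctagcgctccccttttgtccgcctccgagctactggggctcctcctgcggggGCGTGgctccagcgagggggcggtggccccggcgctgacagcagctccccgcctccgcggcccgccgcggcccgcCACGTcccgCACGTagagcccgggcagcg
Bnip3: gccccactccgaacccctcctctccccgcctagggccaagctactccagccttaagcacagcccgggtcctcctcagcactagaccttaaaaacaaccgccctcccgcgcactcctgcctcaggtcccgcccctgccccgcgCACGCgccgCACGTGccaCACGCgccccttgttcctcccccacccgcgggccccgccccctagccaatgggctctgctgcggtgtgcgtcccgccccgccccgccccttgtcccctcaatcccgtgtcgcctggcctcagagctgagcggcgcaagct
The Fam162a window, chr11:78186051-78186350 (+), held 5 matches, 1 of ACGTG and 4 of GCGTG. The Pdk1 window, chr3:77113264-77113563 (+), held 4 matches, and the Bnip3 window, chr1:203154913-203155212 (-), also held 4, with 2 of each motif in both. Their GC content was 69.0%, 72.0% and 71.3% in that order. Of 33469 rat promoters of the same length, 41.6% held either motif, 19.3% held ACGTG, 29.7% held GCGTG, 8.15% held at least 3 matches and 3.46% at least 4. Those promoters were not matched for GC content, so these shares set no expectation for windows as rich in GC as the 3 shown. Among the other members, 3 matches stood in the Hif1a window, 5 in that of Ankrd37, and none in either Vegfa window or in that of Egln3. A promoter was given for 7 of the 10 genes, and those of Bnip3l, Ero1a and Ndrg1 were not used here. A match is a run of letters and not a measured binding site, and no match in these windows says nothing of the gene's other regulatory DNA.

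The stem cell libraries held 5851960 and 992618 reads in ASC_HFS and 3339269 and 7290961 in ASC_C, and the adipocyte libraries between 76083827 and 119555051. Values below are normalized read counts, scaled by the authors within the stem cell table and within the adipocyte table separately, so they are compared only within a stage. A floor of 3 reads was equal to 10.9 normalized counts in the shallow ASC_HFS replicate 2, and to 1.34 to 3.80 in the other 7 libraries. This floor covers counting error only. The libraries of AD_HFS were much closer to each other than those of any other group. Over genes with at least 50 normalized counts on average, the median absolute log2 ratio between replicates was 0.06 in AD_HFS, against 0.29 in AD_C, 0.34 in ASC_HFS and 0.35 in ASC_C. Whether a group's libraries are separate animals or cultures is not stated in the labels. The p-values therefore measure the spread between these samples, which may be technical. In bulk RNA, fewer cells of a type and less RNA per cell cannot be told apart.

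In stem cells, 5 of the 10 genes were lower in ASC_HFS than in ASC_C, 1 was higher and 4 did not pass the test. The genes that fell act on mitochondria (Fam162a, Bnip3l, Bnip3, Pdk1) and in the endoplasmic reticulum (Ero1a), and the gene that rose was Ndrg1. The test was limma-trend on log2(deposited value + 1) across all genes, with a Benjamini-Hochberg adjusted p under 0.05 as the threshold. By this rule 19.1% of all stem cell genes were called, 9.41% higher and 9.70% lower in ASC_HFS. The median log2 difference of the 10 genes was -0.83, against -0.04 over all genes. The groups did not overlap for 9 of the 10 genes, with 3 above and 6 below ASC_C, whereas 61.0% of all genes did not overlap, 28.5% above and 32.5% below. The deposited scale compresses differences of genes with few reads, so the ratio of normalized counts is given beside each log2 difference.

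**Figure D1:**
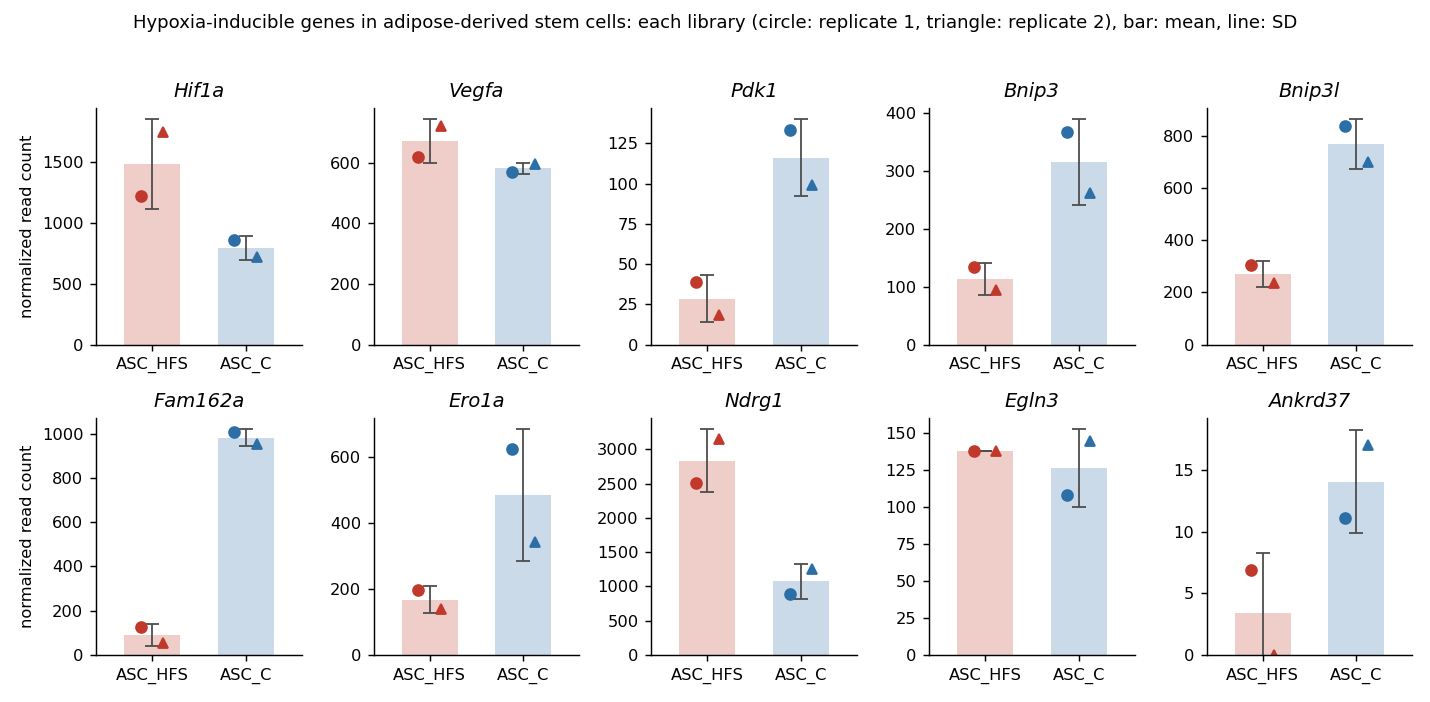
Normalized read counts of the 10 hypoxia-inducible genes in stem cells (vertical axes, each from 0), with ASC_HFS left of ASC_C in each panel. Points are libraries (circle for replicate 1, triangle for replicate 2), bars are means and lines are SD (n = 2). Fam162a stood at 125 and 54.4 in ASC_HFS, against 1008 and 955 in ASC_C, and Ndrg1 ran the other way, at 2512 and 3159 against 893 and 1251.

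Fam162a (ENSRNOG00000002255) encodes a small mitochondrial protein, described in human cells as a HIF-responsive promoter of cell death. It had 125 and 54.4 normalized counts in ASC_HFS, against 1008 and 955 in ASC_C. Both ASC_HFS libraries lay far below both ASC_C libraries. Mean levels were 89.9 ± 50.2 in ASC_HFS and 982 ± 37.1 in ASC_C (SD, n = 2 each), a 10.9-fold lower level. The log2 difference was -2.84 ± 0.28 (SE; limma-trend adjusted p = 4.78e-05). In the shallow ASC_HFS replicate 2 this value rested on 15 reads.

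Bnip3 and Bnip3l encode related outer mitochondrial membrane proteins that recruit the autophagy machinery to mitochondria. Bnip3l (ENSRNOG00000009820) had 307 and 236 normalized counts in ASC_HFS, against 837 and 700.3 in ASC_C. Bnip3 (ENSRNOG00000017243) had 133 and 94.3 in ASC_HFS, against 367 and 262 in ASC_C. For both genes each ASC_HFS library lay below each ASC_C library. Bnip3l was 2.83-fold lower (log2 difference -1.31 ± 0.26 SE, limma-trend adjusted p = 0.00449). Bnip3 was 2.76-fold lower (-1.10 ± 0.25, limma-trend adjusted p = 0.00927).

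Most other genes that carry out or assist mitophagy did not pass the test. Of 14 measured genes of a mitophagy list of 15, 2 rose, 1 fell and 11 were not called in ASC_HFS, a share near that of all genes, and their median log2 difference was 0.14. Sqstm1, the cargo adaptor p62, rose 3.43-fold (limma-trend adjusted p = 0.00886). It had 13951 and 14255 normalized counts in ASC_HFS, against 2544 and 5671 in ASC_C. Gabarapl1, an autophagosome protein, rose 1.97-fold (adjusted p = 0.0417). Fkbp8, another mitophagy receptor, fell to a ratio of 0.515 (adjusted p = 0.0399). The receptor Fundc1 had 15.6 and 14.5 normalized counts in ASC_HFS, against 50.0 and 37.2 in ASC_C (adjusted p = 0.0663).

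Pdk1 (ENSRNOG00000001517) encodes a kinase that inactivates pyruvate dehydrogenase and so keeps pyruvate out of mitochondrial oxidation. It had 38.7 and 18.1 normalized counts in ASC_HFS, against 133 and 99.1 in ASC_C. Every ASC_HFS library was below every ASC_C library, although ASC_HFS replicate 2 gave only 5 reads. Pdk1 was 4.09-fold lower by normalized counts, with a log2 difference of -1.11 ± 0.24 on the deposited scale (SE; limma-trend adjusted p = 0.00617). Among the other 10 genes of the pyruvate dehydrogenase complex, its kinases and phosphatases, 1 rose and none fell, with a median log2 difference of 0.09. These counts were near the shares over all genes, 9.41% higher and 9.70% lower. The gene that rose was Pdk4, the kinase linked to fasting and fat oxidation (ratio 2.37, adjusted p = 0.0343). It had 216 and 236 normalized counts in ASC_HFS, against 45.4 and 145 in ASC_C. Pdk2 and Pdk3 did not pass the test (ratios 0.555 and 0.323, adjusted p = 0.233 and 0.0700).

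Ero1a (ENSRNOG00000006462) encodes the oxidase that recharges protein disulfide isomerases, the enzymes that form disulfide bonds in new secretory proteins. It had 196 and 138 normalized counts in ASC_HFS, against 625 and 342 in ASC_C. The groups did not overlap, and the ASC_C libraries themselves differed widely. Ero1a was 2.90-fold lower (log2 difference -1.21 ± 0.29 SE, limma-trend adjusted p = 0.0114). Among all genes, 9.70% were called lower and 9.41% higher in ASC_HFS. Of 10 other genes of oxidative folding in the endoplasmic reticulum, 4 fell and none rose, with a median log2 difference of -0.73. These were Pdia4 (ratio 0.205, adjusted p = 6.36e-04), Pdia6 (0.298, adjusted p = 0.00273) and Txndc5 (0.353, adjusted p = 0.0167), all of the disulfide isomerase family, and the chaperone gene Calr (0.390, adjusted p = 0.0440). The paralog Ero1b had 21.8 and 21.8 normalized counts in ASC_HFS, against 25.0 and 29.6 in ASC_C (adjusted p = 0.721). Hspa5, a chaperone of the unfolded protein response, had a ratio of 0.955 (adjusted p = 0.925).

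Ndrg1 (ENSRNOG00000007393) encodes a cytoplasmic stress- and differentiation-related protein that low oxygen induces in many cell types. It was the only 1 of the 10 genes called higher in ASC_HFS, with 2512 and 3159 normalized counts in ASC_HFS, against 893 and 1251 in ASC_C. Both ASC_HFS libraries exceeded both ASC_C libraries. The ratio was 2.65 and the log2 difference 1.36 ± 0.32 (SE; limma-trend adjusted p = 0.0101). Of its relatives, Ndrg2 and Ndrg4 were measured, and neither passed the test (ratios 0.715 and 0.433, adjusted p = 0.345 and 0.0760).

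Hif1a (ENSRNOG00000008292), the oxygen-regulated subunit of HIF-1, had 1221 and 1741 normalized counts in ASC_HFS, against 861 and 719 in ASC_C. The groups did not overlap. The ratio of 1.87 (log2 difference 0.84 ± 0.30 SE) did not pass the threshold by limma-trend (adjusted p = 0.0663). It passed by limma-voom on the recovered reads (log2 difference 0.90, adjusted p = 0.0302), a test that called 22.3% of all genes, 12.1% higher and 10.3% lower. The transcript says nothing of the protein, on which oxygen acts.

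Egln3 (ENSRNOG00000005053), a prolyl hydroxylase that marks HIF subunits and is itself a HIF target, had 138 and 138 normalized counts in ASC_HFS, against 108 and 145 in ASC_C. It was the gene whose groups overlapped (log2 difference 0.09 ± 0.23 SE, limma-trend adjusted p = 0.816). Across 12 measured genes of an oxygen-sensing list of 15, 2 rose and none fell, with a median log2 difference of 0.18. The share called was near that of all genes, 19.1%. Epas1, the alpha subunit of HIF-2, rose 2.34-fold, with 624 and 823 normalized counts in ASC_HFS, against 303 and 315 in ASC_C (adjusted p = 0.0138). Cited2, which competes with HIF for its coactivators, rose 2.60-fold (adjusted p = 0.00695). Vhl, the recognition subunit of the ligase, had a ratio of 1.80 (adjusted p = 0.0656), the HIF partner Arnt 1.85 (adjusted p = 0.120) and the hydroxylase gene Egln2 0.951 (adjusted p = 0.922).

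Vegfa (ENSRNOG00000019598), the growth factor that directs vessels towards poorly oxygenated tissue, had 619 and 722 normalized counts in ASC_HFS, against 568 and 594 in ASC_C. The ASC_HFS libraries were above the ASC_C libraries by a small margin, with a ratio of 1.15 (log2 difference 0.18 ± 0.27 SE, limma-trend adjusted p = 0.668). Of 9 related ligands and receptors, 2 rose and 2 fell, against 9.41% and 9.70% of all genes. Their median log2 difference was 0.37. The ligands Vegfd and Vegfc, known for lymphatic vessel growth, fell to ratios of 0.272 and 0.291 (adjusted p = 0.00491 and 0.0104). The receptors Nrp2 and Kdr rose 2.93-fold and 2.37-fold (adjusted p = 0.00398 and 0.0402). Kdr varied within ASC_C, at 681 and 598 normalized counts in ASC_HFS, against 90.8 and 449 in ASC_C.

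Ankrd37 (ENSRNOG00000031335), an ankyrin repeat gene known from human cells as a HIF target, was close to the detection limit in stem cells. It had 6.86 and 0 normalized counts in ASC_HFS, against 11.1 and 17.0 in ASC_C. These values rested on 11 and 0 reads in ASC_HFS, against 12 and 38 in ASC_C, and a count of 0 allows up to 10.9 normalized counts in ASC_HFS replicate 2. A difference was not detectable at this depth (log2 difference -0.57 ± 0.25 SE, limma-trend adjusted p = 0.126).

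Most glycolytic targets of HIF were lower in ASC_HFS. Of 16 glycolytic enzyme and transporter genes listed as HIF targets, 11 fell and 1 rose, against 9.70% and 9.41% of all genes. Their median log2 difference was -1.65. The lactate exporter gene Slc16a3 was at a ratio of 0.109 (adjusted p = 1.94e-04), and the enzyme genes Tpi1, Pgk1 and Aldoc were at 0.151, 0.181 and 0.135 (adjusted p = 3.93e-04, 6.22e-04 and 6.40e-04). The gene that rose was Hk2, the inducible hexokinase (ratio 2.33, limma-trend adjusted p = 0.0372). Hk2 varied widely within ASC_C, at 2994 and 2698 normalized counts in ASC_HFS, against 581 and 1866 in ASC_C. The glucose transporter gene Slc2a1 had a ratio of 1.10 (adjusted p = 0.772). Several glycolytic genes, Gapdh among them, have processed copies in the genome, and how the authors' counting treated reads shared with such copies is not given in the sources used here.

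Other HIF targets moved both ways in ASC_HFS. Of 28 measured genes from a list of 30, 10 fell and 4 rose, against 9.70% and 9.41% of all genes. Their median log2 difference was -0.15. The secreted glycoprotein gene Stc2 (ratio 0.0921, adjusted p = 2.20e-05), the collagen lysyl hydroxylase gene Plod2 (0.0322, adjusted p = 1.13e-04), the glycogen synthase gene Gys1 (0.119, adjusted p = 2.28e-04) and the cytokine gene Mif (0.195, adjusted p = 5.93e-04) were the 4 with the smallest p. Plod2 had no reads in ASC_HFS replicate 2, so its ratio is imprecise. The genes that rose, named after their values were seen, were the lipase inhibitor Angptl4 (ratio 3.65, adjusted p = 0.00165), the repressor Bhlhe40 (2.58, adjusted p = 0.00695), Wsb1 (2.52, adjusted p = 0.0202) and the glucose transporter Slc2a3 (2.54, adjusted p = 0.0157).

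**Figure D2:**
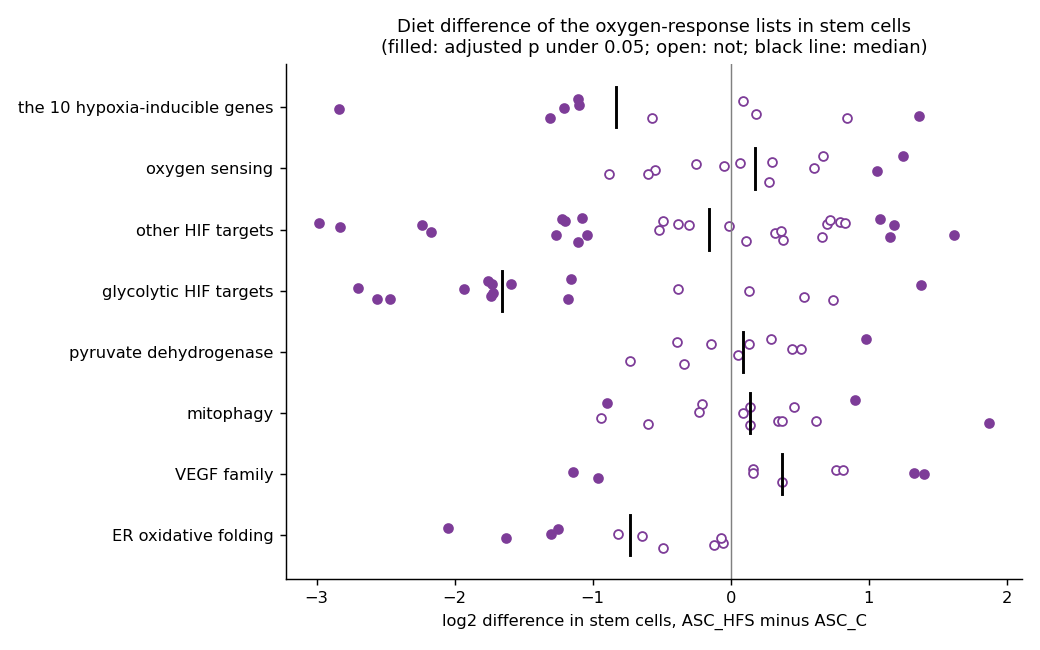
Log2 difference of ASC_HFS minus ASC_C (horizontal axis, log2 of the deposited value + 1) for the measured genes of each list, 1 point per gene, filled where the limma-trend adjusted p was under 0.05. Black lines are medians, at -1.65 for the glycolytic targets and at -0.83 for the 10 hypoxia-inducible genes.

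The same libraries also differed in markers of other cell types. For comparison, 9.41% of all genes were called higher and 9.70% lower in ASC_HFS. Macrophage markers took 0.299% and 0.319% of reads in ASC_HFS, against 0.0930% and 0.0976% in ASC_C, and 9 of 11 measured ones were called higher. Endothelial markers took 0.129% and 0.129% in ASC_HFS, against 0.0285% and 0.0589% in ASC_C, with 7 of 9 called higher, Kdr among them. Epithelial markers took 0.0255% and 0.0265% in ASC_HFS, against 0.00422% and 0.00664% in ASC_C, with 6 of 7 called higher. Cell cycle genes took 0.0301% and 0.0283% in ASC_HFS, against 0.0533% and 0.0474% in ASC_C, with 8 of 10 called lower. Mesenchymal progenitor markers took 2.86% and 3.00% in ASC_HFS, against 1.83% and 2.03% in ASC_C, with 4 called higher and 3 lower of 11. The collagen gene Col1a1, which was not called (adjusted p = 0.0744), alone took 2.21% and 2.34% in ASC_HFS, against 0.866% and 1.19% in ASC_C. The other 10 markers, a split made after the values were seen, took 0.650% and 0.655% in ASC_HFS, against 0.963% and 0.846% in ASC_C. Adipocyte markers took 0.296% and 0.221% in ASC_HFS, against 0.0871% and 0.314% in ASC_C, with 5 of 10 called higher. None of the 14295 stem cell genes was without reads in all 4 libraries, so every measured marker had reads by construction. The listed markers Marco and Pecam1 were not found by symbol among the measured genes. The part of the cell type markers in the differences above was not tested.

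The calls in stem cells depended on having all 4 libraries. With any 1 library left out, limma-trend called none of the 14295 genes, while between 2318 and 4538 genes had an unadjusted p under 0.05. Limma-voom, which still made calls, called 3 of the 10 genes lower without ASC_HFS replicate 1 (background 1.96%), 4 without ASC_HFS replicate 2 (4.16%), and 5 without ASC_C replicate 1 (11.6%) or ASC_C replicate 2 (13.9%). In each of these fits 1 diet had a single library, so the spread came from the pair of the other diet, and the lone library was assumed to vary likewise. Ndrg1 was called higher without ASC_HFS replicate 1 (background 5.64%), ASC_C replicate 1 (11.2%) or ASC_C replicate 2 (11.6%), and Hif1a joined it without ASC_C replicate 1. Ndrg1 was not called without ASC_HFS replicate 2 (limma-voom adjusted p = 0.0852, background 5.69%). Limma-voom did not call Pdk1 or Bnip3 without ASC_HFS replicate 1, nor Bnip3 without ASC_HFS replicate 2. The log2 difference of Pdk1 on the voom scale was -2.52 without ASC_HFS replicate 1, against -1.73 with all libraries. That of Fam162a was -4.13, against -3.26. By normalized counts, Fam162a was then 18.0-fold lower and Pdk1 6.41-fold lower. Without the shallow ASC_HFS replicate 2 they were 7.83-fold and 3.01-fold lower, against 10.9-fold and 4.09-fold with all libraries. With all libraries thinned to the shallowest, limma-voom called 2 of the 10 genes lower, against 5 on all reads. These were Fam162a (limma-voom adjusted p = 0.0133) and Bnip3l (adjusted p = 0.0261), where the background was 2.85%. Ndrg1 was called higher (limma-voom adjusted p = 0.0429, background 4.05%).

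In adipocytes none of the 10 genes passed the test between AD_HFS and AD_C by limma-trend or by limma-voom. The background was also low, with 1.34% of 18236 genes called by limma-trend, 1.31% higher and 0.0329% lower in AD_HFS, and 0.823% by limma-voom, 0.806% higher and 0.0165% lower. Unadjusted p was under 0.05 for 2 of the 10, Ndrg1 and Ero1a, near the share of 13.9% over all genes. Both AD_HFS libraries lay below both AD_C libraries for 7 genes, and the groups overlapped for Hif1a, Pdk1 and Ankrd37. Over all genes 47.7% did not overlap, 23.5% below and 24.2% above. The median log2 difference of the 10 genes was -0.24, against -0.01 over all genes.

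**Figure D3:**
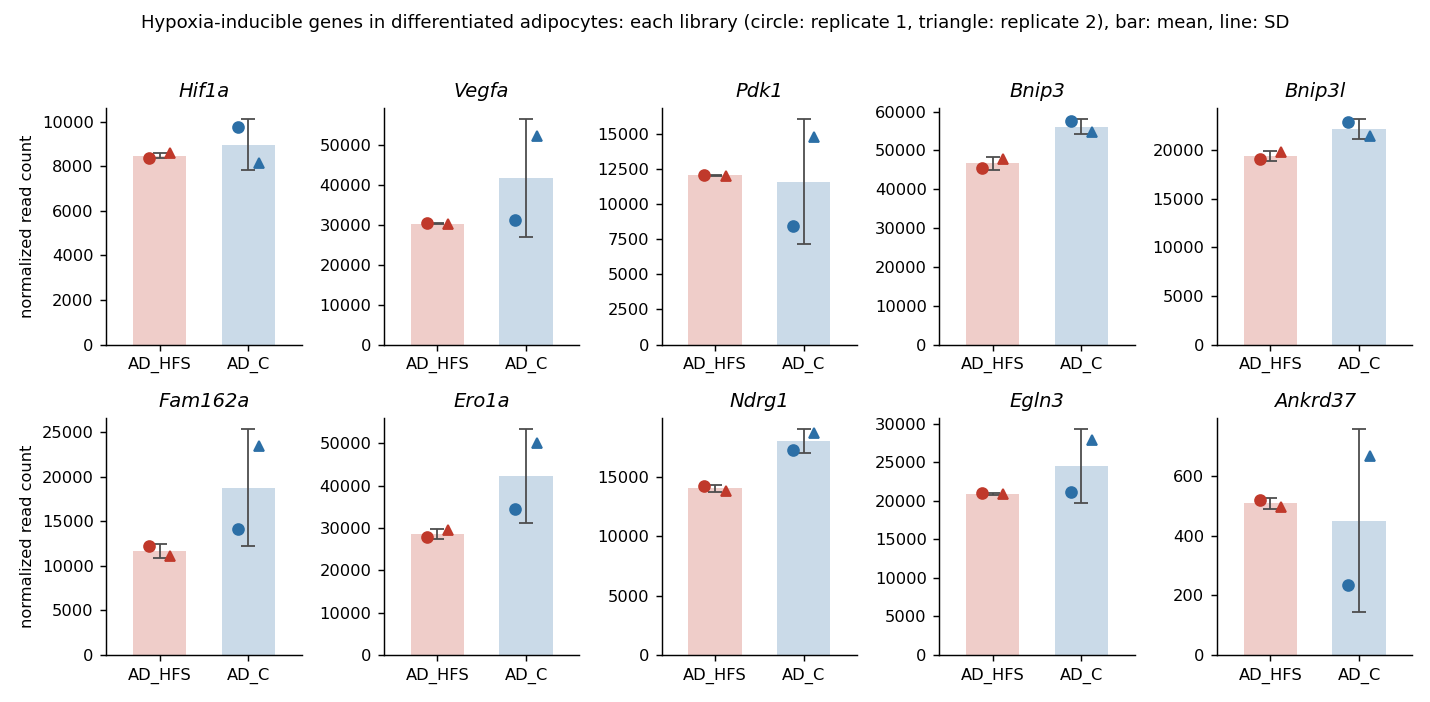
Normalized read counts of the 10 genes in adipocytes (vertical axes, each from 0), with AD_HFS left of AD_C in each panel. Points are libraries (circle for replicate 1, triangle for replicate 2), bars are means and lines are SD (n = 2). The AD_HFS libraries nearly coincide, while Fam162a stood at 14117 and 23375 and Vegfa at 31287 and 52175 in AD_C.

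Fam162a had 12223 and 11098 normalized counts in AD_HFS, against 14117 and 23375 in AD_C. The ratio was 0.622 (log2 difference -0.63 ± 0.25 SE, limma-trend adjusted p = 0.376). Ero1a had 27754 and 29410.3 in AD_HFS, against 34383 and 50041 in AD_C (ratio 0.677, limma-trend adjusted p = 0.346). Ndrg1 had 14238 and 13870.4 in AD_HFS, against 17308 and 18744 in AD_C (ratio 0.780, limma-trend adjusted p = 0.212). In each of the 3 genes the AD_HFS values lay below the AD_C values without overlap.

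The mitophagy receptors had ratios below 1 in adipocytes without passing the test. Bnip3 had 45377 and 47901 normalized counts in AD_HFS, against 57478 and 54673 in AD_C (ratio 0.832, limma-trend adjusted p = 0.375). Bnip3l had 19092 and 19796 in AD_HFS, against 22918 and 21471 in AD_C (ratio 0.876, limma-trend adjusted p = 0.471). Vegfa had 30356 and 30261 in AD_HFS, against 31287 and 52175 in AD_C (ratio 0.726, limma-trend adjusted p = 0.556). Its lower mean in AD_HFS came with 1 high AD_C library. Egln3 had 21049.8 and 20865 in AD_HFS, against 21177 and 27902 in AD_C (ratio 0.854, limma-trend adjusted p = 0.613).

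The other 3 genes had overlapping groups. Hif1a had 8387 and 8576 normalized counts in AD_HFS, against 9778 and 8152 in AD_C (log2 difference -0.07 ± 0.12 SE, limma-trend adjusted p = 0.837). Pdk1 had 12085 and 12007 in AD_HFS, against 8458 and 14748 in AD_C (0.11 ± 0.27, limma-trend adjusted p = 0.900). Ankrd37, well above its floor here, had 521 and 496 in AD_HFS, against 234 and 667 in AD_C (0.22 ± 0.36, limma-trend adjusted p = 0.832). For Pdk1 and Ankrd37 the AD_HFS libraries sat between the AD_C libraries.

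The AD_C libraries differed from each other in most of these genes. Replicate 2 exceeded replicate 1 by at least 1.2 times for 6 of the 10 genes, against 27.5% of all genes with at least 50 normalized counts on average. The ratio of replicate 2 to replicate 1 was 2.85 for Ankrd37, 1.74 for Pdk1, 1.67 for Vegfa, 1.66 for Fam162a, 1.46 for Ero1a and 1.32 for Egln3. It was 0.834 for Hif1a and between 0.937 and 1.08 for Bnip3l, Bnip3 and Ndrg1. The calls turned on these libraries. Without AD_C replicate 1, limma-trend called 9 of the 10 genes lower (background 18.3%), all but Hif1a, and none higher (20.7%). Without AD_C replicate 2 it called 6 lower (26.4%) and Pdk1 and Ankrd37 higher (27.5%). In both of those fits the spread came from the AD_HFS pair alone. Without either AD_HFS library no gene was called by either tool, and genes with an unadjusted p under 0.05 then numbered 898 and 881 by limma-trend and 858 and 925 by limma-voom.

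Among the lists of the oxygen response and related pathways, the other HIF targets held 1 gene called in adipocytes. Slc2a3, a high-affinity glucose transporter, had 7527 and 7653 normalized counts in AD_HFS, against 13418 and 15256 in AD_C (ratio 0.529, limma-trend adjusted p = 0.0448). By limma-voom its adjusted p was 0.0554. No gene was called among 13 measured oxygen-sensing, 16 glycolytic, 10 pyruvate dehydrogenase, 14 mitophagy, 9 VEGF family, 10 oxidative folding and 2 Ndrg genes. Macrophage markers took 0.366% and 0.366% of reads in AD_HFS, against 0.0403% and 0.0776% in AD_C. Of 11 measured, 5 were called higher, against 1.31% of all genes. Endothelial markers took 0.00765% and 0.00733% in AD_HFS, against 0.00634% and 0.00453% in AD_C, with 1 of 9 called higher. Cell cycle genes took 0.0174% and 0.0174% in AD_HFS, against 0.00852% and 0.0116% in AD_C, with none of 10 called. All 10 lay above AD_C without overlap, against 24.2% of all genes. Unadjusted p was under 0.05 for 8 of them, against 13.9% of all genes. Mesenchymal progenitor markers took 0.748% and 0.752% in AD_HFS, against 0.841% and 1.28% in AD_C, with none of 11 called. Of these markers 5 had an unadjusted p under 0.05, beside the same 13.9% of all genes. Epithelial markers stayed under 0.001% of reads in all 4 libraries. None of the 18236 adipocyte genes was without reads in all 4 libraries, so this held for every measured marker by construction. Marco and Pecam1 were again not found by symbol. The part of the cell type markers in these differences was not tested.

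The diet difference itself differed between the stages for Ndrg1, Fam162a and Bnip3l. This was tested as an interaction, the AD_HFS minus AD_C difference less that of ASC_HFS minus ASC_C, in 1 limma-trend fit of all 8 libraries over the 14018 genes measured at both stages. The deposited scale compresses low counts more or less strongly depending on the table, so these differences are on scales that are not fully alike. The test called 12.5% of these genes, 7.53% with a higher difference in adipocytes and 4.93% with a lower one. Fam162a had a log2 difference of -0.63 in adipocytes and of -2.84 in stem cells, an interaction of 2.20 ± 0.40 (SE; limma-trend adjusted p = 0.0105). Bnip3l had -0.19 in adipocytes and -1.31 in stem cells, an interaction of 1.12 ± 0.26 (adjusted p = 0.0245). Ndrg1 had -0.35 in adipocytes and 1.36 in stem cells, an interaction of -1.71 ± 0.30 (adjusted p = 0.00967). By limma-voom, which called 9.26% of the genes (5.29% higher and 3.97% lower in adipocytes), these 3 interactions passed as well (adjusted p = 0.0213 for Fam162a, 0.0308 for Bnip3l and 0.0166 for Ndrg1). For Ndrg1 the sign of the difference was opposite at the 2 stages, although its adipocyte difference did not pass the test. The limma-trend fit took 1 variance per gene over both stages. For Ndrg1 the interaction SE of 0.30 was below that of its stem cell difference alone (0.32, against 0.09 in adipocytes). The spread in stem cells may therefore be understated in the interaction p-values.

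**Figure D4:**
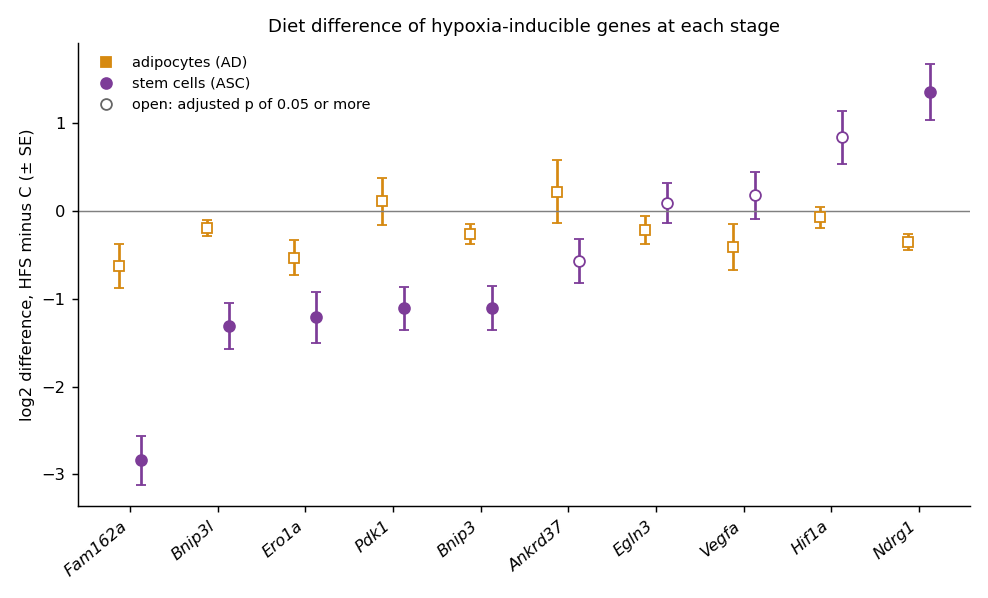
Log2 difference of HFS minus C for each of the 10 genes (vertical axis, log2 of the deposited value + 1, ± SE), in adipocytes (squares) and stem cells (circles), filled where the adjusted p was under 0.05. The adipocyte values lie between -0.63 and 0.22, and the stem cell values between -2.84 and 1.36.

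Interactions of the other 7 genes did not pass. Pdk1 had an interaction of 1.21 (limma-trend adjusted p = 0.0590), Hif1a of -0.91 (adjusted p = 0.0716) and Bnip3 of 0.84 (adjusted p = 0.0815). Adjusted p was 0.265 for Ankrd37, 0.269 for Vegfa, 0.278 for Ero1a and 0.478 for Egln3. Leaving out 1 library changed these calls in several cases. Fam162a missed the threshold without ASC_HFS replicate 2 (adjusted p = 0.0511) and without ASC_C replicate 1 (0.0553). Ndrg1 missed it without AD_HFS replicate 2 (0.0515). Bnip3l passed in 3 of the 8 fits that left out a library, those without AD_C replicate 2 (0.0413), ASC_C replicate 2 (0.0263) and ASC_HFS replicate 1 (0.0209). Without AD_C replicate 2, Pdk1 (0.0142) and Ankrd37 (0.0369) passed, without ASC_C replicate 2 Bnip3 did (0.0453), and without ASC_HFS replicate 1 Hif1a did (0.0305). Slc2a3 had an interaction of -1.98 ± 0.31 (adjusted p = 0.00684), higher in stem cells and lower in adipocytes of HFS-fed rats.

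Levels were set side by side across stages as reads per 1000000 (rpm) over the 14018 genes measured at both stages, with no test, because stage, table and sequencing depth cannot be told apart. Every adipocyte library exceeded every stem cell library for Vegfa, Pdk1, Bnip3, Ero1a and Egln3, and lay below for Hif1a and Ndrg1. Over all common genes, 22.4% lay above and 19.1% below in every library. Adipocyte markers, a check of the labels, took 1.46% and 1.46% of reads in AD_HFS and 1.24% and 1.62% in AD_C, against 0.296% and 0.221% in ASC_HFS and 0.0871% and 0.314% in ASC_C. Together the 10 hypoxia-inducible genes took 0.197% and 0.200% of reads in AD_HFS and 0.226% and 0.283% in AD_C, against 0.145% and 0.175% in ASC_HFS and 0.175% and 0.156% in ASC_C.

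**Figure D5:**
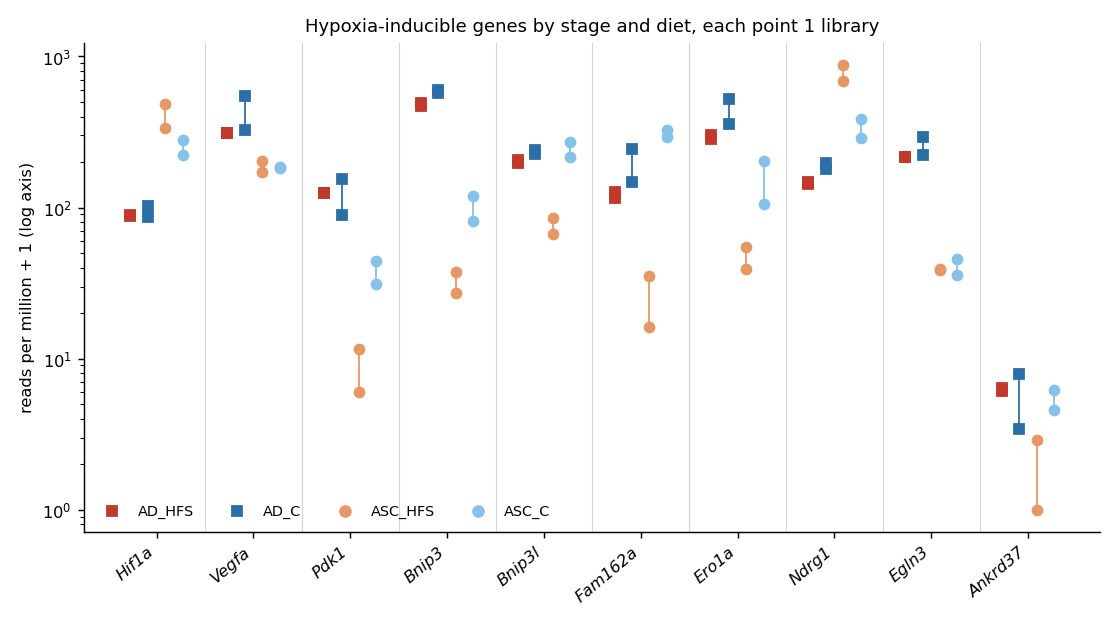
Rpm + 1 (log axis) of each of the 10 genes in all 8 libraries, 1 point per library, with adipocytes (squares) left of stem cells (circles) and HFS left of C. Lines join the libraries of a group. Bnip3 shows 467 to 598 rpm in adipocytes and 26.2 to 119 rpm in stem cells, and Ndrg1 143 to 195 rpm in adipocytes and 289 to 878 rpm in stem cells.

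Bnip3 stood at 467 and 494 rpm in AD_HFS and 598 and 569 rpm in AD_C, against 36.6 and 26.2 rpm in ASC_HFS and 119 and 80.1 rpm in ASC_C. The adipocyte to stem cell ratio was 15.3 under HFS and 5.87 under C. Pdk1 stood at 124 and 124 rpm in AD_HFS and 87.9 and 154 rpm in AD_C, against 10.6 and 5.04 rpm in ASC_HFS and 43.1 and 30.3 rpm in ASC_C. Its ratio was 15.9 under HFS and 3.29 under C. For both genes the HFS stem cells held the lowest levels of the 4 groups.

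Egln3 levels were apart between the stages in every library and close between the diets within each stage. They stood at 216 and 215 rpm in AD_HFS and 220.2 and 291 rpm in AD_C, against 37.8 and 38.3 rpm in ASC_HFS and 35.0 and 44.3 rpm in ASC_C, with stage ratios of 5.67 under HFS and 6.44 under C. Ero1a had ratios of 6.40 under HFS and 2.86 under C, and Vegfa had 1.69 and 2.38.

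Hif1a and Ndrg1 were at lower levels in adipocytes. Hif1a stood at 86.3 and 88.5 rpm in AD_HFS and 102 and 84.9 rpm in AD_C, against 335 and 484 rpm in ASC_HFS and 278 and 220.1 rpm in ASC_C. Ndrg1 stood at 146 and 143 rpm in AD_HFS and 180.0 and 195 rpm in AD_C, against 689 and 878 rpm in ASC_HFS and 289 and 383 rpm in ASC_C. For both, the HFS stem cells held the highest levels of the 4 groups.

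Fam162a and Bnip3l were higher in adipocytes than in stem cells of HFS-fed rats but not of control rats. Fam162a stood at 126 and 115 rpm in AD_HFS and 147 and 243 rpm in AD_C, against 34.4 and 15.1 rpm in ASC_HFS and 326 and 292 rpm in ASC_C. It was thus 4.85 times the stem cell level in adipocytes of HFS-fed rats and 0.631 times that level in adipocytes of control rats. Bnip3l stood at 196 and 204 rpm in AD_HFS and 238 and 224 rpm in AD_C, against 84.1 and 65.5 rpm in ASC_HFS and 271 and 214 rpm in ASC_C, with ratios of 2.68 under HFS and 0.952 under C. Ankrd37 was at most 6.95 rpm in any library, at 5.36 and 5.12 rpm in AD_HFS and 2.44 and 6.95 rpm in AD_C, against 1.88 and 0 rpm in ASC_HFS and 3.59 and 5.21 rpm in ASC_C.

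The genes closest in pattern to the 3 members with the smallest p in stem cells were found by the root mean square difference of mean-centred log2(rpm + 1) over the 8 libraries, among 8497 genes with at least 10 rpm on average. For Fam162a these were Gng8 (0.28), Nt5dc2 (0.32) and Glt8d1 (0.36). For Bnip3l they included Aldh7a1 (0.09) and Pofut1 (0.12), and for Pdk1 they were Arntl2 (0.26), Pygl (0.27) and Nsdhl (0.27). The rank of the nearest other member of the 10, among those 8497 genes, varied widely. The nearest other member to Pdk1 was Bnip3, at rank 21 (0.41), that to Fam162a was Bnip3l at rank 263 (0.79), and that to Bnip3l was Vegfa at rank 3366 (0.68). These likenesses describe 8 libraries that share stage, diet and depth.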

How the data were processed

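RNA was sequenced as 50 bp paired-end reads from 8 rat libraries, 2 in each of 4 groups. The labels name both polyA RNA and a kit for rRNA depletion. Per the submitters' processing notes, FastQC, STAR, featureCounts and DESeq2 were used and the builds are mRatBN7.2 and rn7. Tool versions are not given in the sources used here. The authors deposited 1 table per stage, whose values are a signal: the base 2 antilog of variance-stabilized, size-factor normalized counts, with a lowest value of 34.7 in stem cells and 107 in adipocytes for genes without reads. Inverting this transformation returned whole numbers of reads for 100.0% of the values of each library (relative tolerance 1e-06). From these reads came the depths, normalized counts and reads per 1000000 (rpm).

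The main test was limma-trend (limma 3.58.1, R 4.3.3), two-sided, run in each table on the log2 of the deposited value plus 1, with a minimum mean value of 10 that removed no gene. With 2 libraries per group there were 2 residual degrees of freedom, with the variance moderated across genes. The interaction used all 8 libraries. The alternatives included limma-voom on recovered reads, thinning, averaging of the HFS pair and leaving out each library. Limma-voom with a library left out and a crossed replicate block were chosen after seeing the data. The fits were tested on simulated data. Replicate numbers were not treated as pairs, since the labels do not link them.

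The 10 genes and the other gene lists were chosen with earlier results of these data known. All 10 genes were named. Of each list, up to 4 genes called in stem cells by smallest p, all called in adipocytes and defining genes were named. Of the genes closest in pattern to the members, 1 is not reported here. Motifs were counted in RefSeq promoters of GRCr8, a build other than that of the tables. Promoters matched 7 of the 10 symbols. Egln1 and Ep300, of the oxygen-sensing list, were not analysed here. Tables and figures were made with matplotlib 3.10.9, pandas 2.3.3 and numpy 2.4.6 in Python 3.11.15.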

Additional observations from a re-analysis of the deposited data

Results flagged for a closer look

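The diet difference of 3 of the 10 genes differed between the stages by the interaction test (limma-trend, adjusted p under 0.05). By this test 12.5% of the 14018 genes measured at both stages were called. Each of the 3 calls was lost in some fits with a library left out. The difference in adipocytes less that in stem cells was 2.20 on the log2 scale for Fam162a (adjusted p = 0.0105), 1.12 for Bnip3l (adjusted p = 0.0245) and -1.71 for Ndrg1 (adjusted p = 0.00967). Vegfa stood out in another way, because both adipocyte libraries of HFS-fed rats lay below both control libraries while both stem cell libraries of HFS-fed rats lay above theirs. Its interaction was -0.60 and did not pass the test (limma-trend adjusted p = 0.269).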

How the results depend on the processing

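In stem cells, 1345 genes were called higher and 1386 lower in ASC_HFS. These counts were 577 and 405 after thinning to the shallowest library, 0 and 0 with the HFS pair averaged (3393 genes at an unadjusted p under 0.05), and 0 to 0 higher and 0 to 0 lower by limma-trend when each library was left out. Limma-voom with each library left out gave 806 to 1655 higher and 280 to 1988 lower, with 814 and 595 without ASC_HFS replicate 2. Of the 10 genes, 1 was higher and 5 lower. The higher count was 2 by limma-voom, by 1 fit of all 8 libraries and by the crossed block, 0 with the HFS pair averaged, and 0 to 2 over the fits with a library left out. The lower count was 2 after thinning, 0 with the HFS pair averaged and 0 to 5 over the fits with a library left out. Over 22 alternatives every member kept its sign except Egln3, which ranged from -0.05 to 0.24 with each library left out and was -0.07 by limma-voom without ASC_C replicate 1. Fam162a and Bnip3l were called in 17, Ero1a and Ndrg1 in 16, Pdk1 in 15, Bnip3 in 14 and Hif1a in 4 of them. These alternatives were not independent checks. The fit without a filter repeated the main fit, since the filter removed no gene. The changed pseudocounts were small beside the lowest deposited value of 34.7. The correlation of same-numbered deviations was -0.123 in stem cells and 0.00141 in adipocytes. The replicate block gave 1425 higher and 1551 lower genes with the same 5 and 1 members called in stem cells, and the crossed pairing gave 1735 and 1899. In adipocytes, 238 genes were higher and 6 lower, against 599 and 62 with the replicate block, 92 and 3 with upper quartile scaling, 147 and 3 by limma-voom, 80 and 2 after thinning, 403 and 20 by 1 fit of all 8 libraries, and 0 and 0 with the HFS pair averaged (857 at an unadjusted p under 0.05). Leaving out each library gave 0 to 5018 higher and 0 to 4812 lower, and by limma-voom 3768 and 3460 without AD_C replicate 1 and 4556 and 4669 without AD_C replicate 2. None of the 10 genes was called, and over the fits with a library left out 0 to 2 were higher and 0 to 9 lower. Without AD_C replicate 1, signs turned for Hif1a (0.06, range -0.20 to 0.06 with each library left out, and 0.06 by limma-voom), Pdk1 (-0.29, range -0.29 to 0.50, and -0.29) and Ankrd37 (-0.30, range -0.30 to 0.75, and -0.39). The interaction called 1056 genes with a higher and 691 with a lower difference in adipocytes, 901 and 565 with the replicate block, and 268 to 1451 and 157 to 1000 with each library left out. Members called were 2 and 1, and 4 with a higher difference on log2 rpm, and 0 to 4 and 0 to 2 with each library left out. Vegfa in AD_HFS was 312 rpm over all genes of the table too. Its change was lost in rounding, though larger than the very small replicate spread (SD 0.0345 rpm). The cause of these changes was not tested, but a fit with a library left out has fewer samples. Depth limits Ankrd37, Plod2 and Pdk1 in ASC_HFS replicate 2.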
